A study of Mus musculus with 53 samples.

Results

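The comparison described here sets 9 liver tumors with high transcript levels of chromosome 15 genes against 9 liver tumors with low levels. The tumors were selected on measured values. For each tumor the deposited log2 values of 9 genes on chromosome 15 (Pabpc1, Ywhaz, Rad21, Eif3h, Eif3e, Azin1, Puf60, Cyc1 and Exosc4) were centered on the gene's mean and averaged into a score, and the 9 highest and 9 lowest of 28 ranked liver tumors were taken. Both groups together hold 18 of the 53 arrays of the series, and 10 ranked tumors lie between them and are called middle tumors. Because the values themselves chose the tumors, differences between high and low tumors are described without a test. Tests are given only for labels the ranking did not use and for samples outside the 2 groups.

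All samples came from mice of a mixed B6-129Sv background. The liver tumors grew in mice with both copies of Mad2l1, a spindle assembly checkpoint gene, flanked by loxP sites (Mad2f/f) and with a Cre recombinase driven by the albumin promoter (Alb-Cre+), which acts in developing hepatocytes. The mice carried both copies (p53 f/f) or 1 copy (p53 f/+) of floxed Trp53, the gene of the tumor suppressor p53. The 10 healthy livers were from wild type mice. Animals were killed because of liver adenoma or carcinoma or of T-ALL (a T-cell leukemia), and the labels do not say which liver sample was an adenoma or carcinoma, nor the age of each mouse. Of the high tumors 8 were p53 f/f and 1 was p53 f/+, from 9 mice, whereas 4 low tumors were p53 f/f and 5 were p53 f/+, from 8 mice. The 28 ranked tumors came from 20 mice, and 2 of these mice gave a tumor to each group.

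Chromosomes that are gained or lost usually change the transcript level of most of their genes in the direction of the copy change, so the mean over a chromosome is a common readout for whole-chromosome shifts in tumors. Mouse chromosome 15 carries the oncogene Myc and the genes of the paired liver keratins 8 and 18, and the genes of several translation factors and of enzymes of hepatocyte metabolism. These arrays measure RNA. DNA copy number was not analysed here, so a shift of the chromosome's transcripts cannot be read as a copy number, and in dissected tumors fewer cells of a type cannot be told apart from less RNA per cell.

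Mad2l1, the gene targeted in all liver tumors, ran from 5.75 to 8.69 log2 (median 7.60) in high and from 5.70 to 8.46 (median 6.44) in low tumors, and from 4.80 to 7.42 (median 6.70) in healthy livers. All tumors together did not differ from healthy liver past the threshold (0.70 ± 0.34 log2 (SE), limma adjusted p = 0.12). The position of its probe relative to the floxed exons was not looked up, so this level does not check the deletion, and Trp53 was not among the genes that passed the detection filter.

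The signal of 1 low tumor, Liver tumor 12, was not used because it has deposited log2 values but no probe intensities, so background-corrected and quantile normalized (neqc) log2 intensities compare 9 high with 8 low tumors. The rule leaves out Liver tumor 13, whose array was dim. The 95th percentile of the intensities ran from 1201 to 2904 (median 2194) in the high and from 1051 to 2518 (median 1391) in the low tumors, and the share of detected probes from 34.5% to 39.3% and from 34.3% to 37.7%. Of the high tumors 5 lay on 1 bead chip (chip C) that held 1 low tumor. Xist, the RNA of the inactive X chromosome, was detected in 1 of 9 high, 5 of 8 low and 6 of 10 middle tumors. The part of brightness, chip and Xist status in the differences was not tested. Healthy liver 1 stood apart from the other healthy livers (Igf2 at 11.55 against 6.26 to 8.22 log2), and Healthy liver 5 had the lowest 95th percentile among the 10 (830). Hepatocyte markers summed to 17.89 to 18.12 log2 in high and 17.88 to 18.06 in low tumors, with transferrin (Trf) at 15.55 to 15.78 and 15.42 to 15.67, while the kept probe for albumin was detected in 5 of 9 high and 2 of 8 low tumors.

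The score separated the groups by construction. It ran from 0.067 to 0.478 (median 0.146) in high, from −0.079 to 0.053 in middle and from −0.258 to −0.108 (median −0.190) in low tumors. The margins were narrow: the last high tumor, Liver tumor 14, scored 0.067 and the first middle tumor, Liver tumor 3, scored 0.053, while Liver tumor 25 (−0.108) was the last low tumor and Liver tumor 23 (−0.079) stood just outside. Liver tumor 4 (0.478) and Liver tumor 8 (0.315) scored well above the third tumor, Liver tumor 26 (0.164).

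The score did not rest on all 9 genes. The probes for Rad21, the cleavable cohesin subunit, and Eif3e, a subunit of translation initiation factor eIF3, were detected in 0 of 27 tumors. Those for Eif3h, another eIF3 subunit, and Azin1, an inhibitor of the antizyme that degrades ornithine decarboxylase, were detected in 2 and 4. The other 5 genes, detected in all 27 tumors, carried 97.1% of the score's variance, and a score from these 5 alone chose the same 9 high and 9 low tumors. The high minus low difference of Rad21 was 0.05 log2, at an intensity not above background, so its level can be compared in none of these tumors.

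Among the 5 detected score genes the cytoplasmic poly(A)-binding protein gene Pabpc1 differed by 2.04 log2 (high 7.95, 9.20 and 10.21, low 6.25, 6.86 and 8.84 as lowest, median and highest). Its values overlapped through Liver tumor 5, a low tumor at 8.84. The 2 other Pabpc1 probes differed by 0.85 and 0.38 log2. Ywhaz, which encodes the 14-3-3 zeta adaptor, ran from 10.66 to 11.89 in high and from 9.10 to 10.65 in low tumors, so that its groups just met without overlap. The splicing factor gene Puf60 was higher by 0.66, the RNA exosome subunit gene Exosc4 by 0.35 and the cytochrome c1 gene Cyc1 by 0.19 log2, with overlapping groups for each.

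Genes of chromosome 15 outside the score were higher in high tumors as a body. The chromosome 15 mean (the average centered log2 value of 481 genes without the 9 score genes, relative to all autosomal genes) was 0.22 ± 0.23 (SD, n = 9) in high and −0.18 ± 0.08 (SD, n = 8) in low tumors, a difference of 0.40 log2. High tumors ran from −0.011 (Liver tumor 14) to 0.737 (Liver tumor 4) and low tumors from −0.313 (Liver tumor 5) to −0.030 (Liver tumor 25), so the groups did not overlap but met closely. The same difference over the other 18 autosomes and the X chromosome lay between −0.11 and 0.10 log2. Without Liver tumors 4 and 8 it was 0.31 on chromosome 15, and with the deposited log2 values, the scale of the score, it was 0.23 (9 against 9 tumors).

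**Figure D1:**
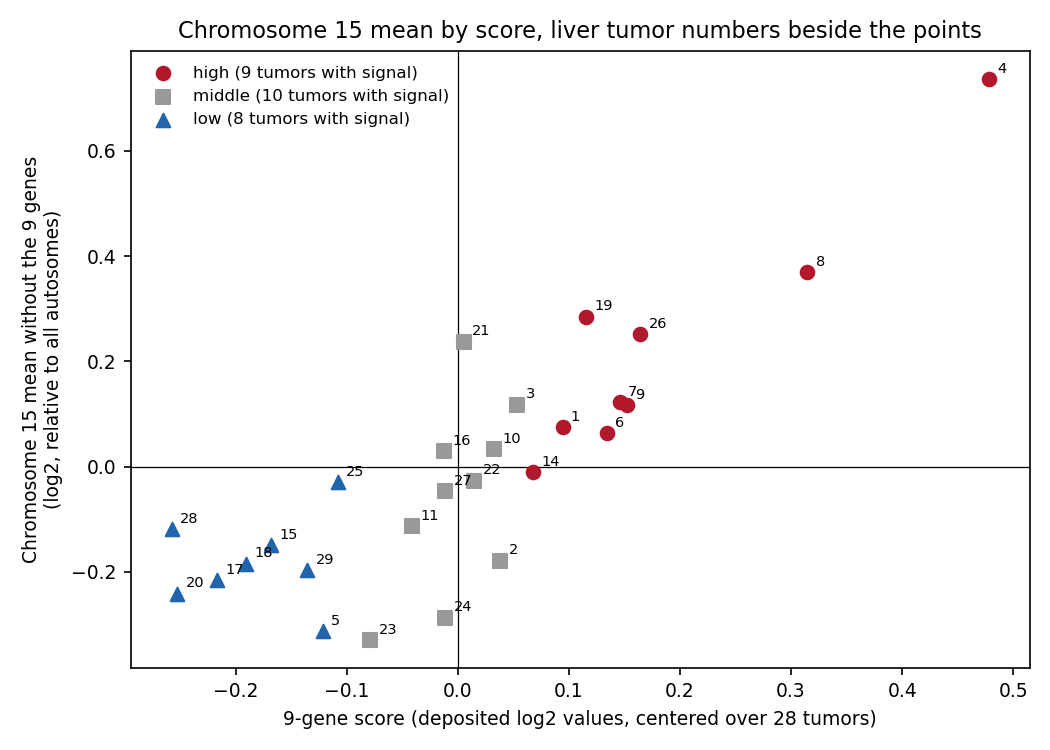
The 9-gene score (x axis, deposited log2 values centered over 28 tumors) is plotted against the chromosome 15 mean without these genes (y axis, log2 relative to all autosomes), 1 point per tumor with its number, for 9 high (circles), 10 middle (squares) and 8 low tumors (triangles). The high tumors sit between −0.011 and 0.737 on the y axis, the low tumors between −0.313 and −0.030, and the middle tumors span both.

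Over the 27 tumors with intensities the score and the chromosome 15 mean correlated with Pearson's r = 0.85 and Spearman's coefficient = 0.82, and r was 0.73 without Liver tumors 4 and 8, given as a description because the tumors were ranked on the same arrays. For samples outside the 2 groups the 9-gene score was recomputed from neqc intensities and centered within each set, so it differs from the ranking score. Among the 10 middle tumors, which neither group used, r was 0.64 (permutation p = 0.048) and Spearman's coefficient 0.68 (permutation p = 0.034), both two-sided, which did not pass adjustment over the 6 tests of this family (adjusted p = 0.26). Liver tumors 23 and 24 lay farthest from the median of this recomputed score (−0.105 and −0.060). On the ranking score Liver tumor 24 stood at −0.011. Without these 2 tumors r fell to 0.19 (exact permutation p = 0.66, n = 8), so the relation rested on them. In the 10 healthy livers r was −0.15 (permutation p = 0.72) and in 7 T-ALLs 0.23 (exact permutation p = 0.61), with adjusted p = 0.74 for both. T-ALLs 4 and 5, whose arrays were dim, are left out of these 7, and with them r was 0.74 (exact permutation p = 0.017, n = 9).

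On the same scale the 10 healthy livers had chromosome 15 means of −0.335 to −0.151 (median −0.302). All 9 high tumors lay above every healthy liver. Of the 8 low tumors 5 lay within the healthy range and 3 lay above it, namely Liver tumors 15, 25 and 28 at −0.149, −0.030 and −0.119.

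**Figure D2:**
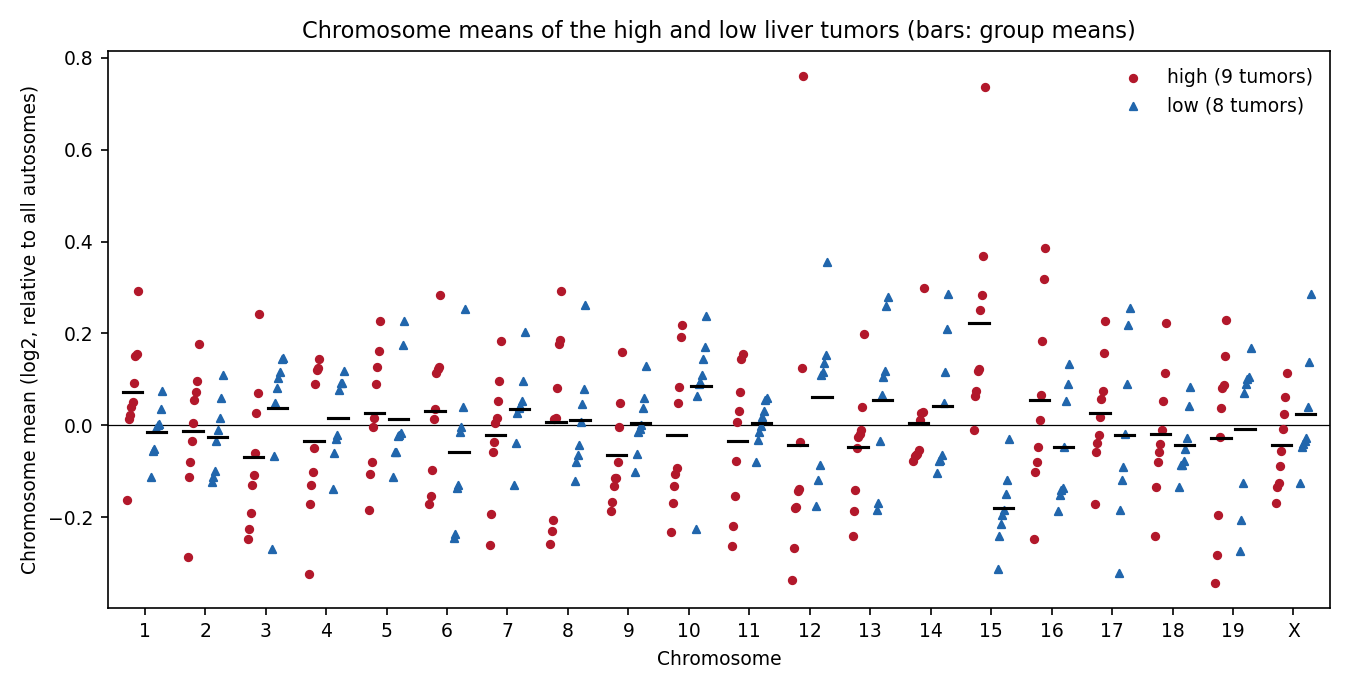
Chromosome means (y axis, log2 relative to all autosomes, chromosome 15 without the 9 score genes) of 9 high (circles) and 8 low tumors (triangles) for each chromosome (x axis), 1 point per tumor, with bars at the group means. Chromosome 15 is the one chromosome on which the bars lie 0.40 log2 apart; the highest point of chromosome 12 is Liver tumor 14 at 0.76.

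Single tumors also shifted on other chromosomes. The SD over all 27 tumors was 0.248 for chromosome 12 and 0.239 for chromosome 15. Liver tumor 14, the lowest-ranked high tumor and the only p53 f/+ tumor in that group, had a chromosome 12 mean of 0.76 with a chromosome 15 mean of −0.011. Of the other chromosomes, 16 had the largest positive difference between high and low tumors (0.10), while chromosomes 3, 10, 12 and 13 had differences of −0.11 to −0.10.

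Counted by gene, 369 of 481 chromosome 15 genes (76.7%) had a higher mean in high tumors, against 44.6% of 11080 genes off the chromosome and 32.1% to 60.6% on any other chromosome. At least 0.5 log2 higher were 195 chromosome 15 genes (40.5%), beside 9.86% of all genes, and 4.83% to 14.8% on each of the others. At least 0.5 log2 lower were 14 chromosome 15 genes (2.91%), beside 8.84% of all genes. The lowest high tumor lay above the highest low tumor for 21 chromosome 15 genes (4.37%) beside 0.207% of all 11567 genes, and no chromosome 15 gene lay lower without overlap, beside 0.0865% of all genes. These shares follow a ranking on the same chromosome and are a description.

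The difference ran along the whole chromosome. When the 481 genes were cut by gene order into 8 blocks of 60 or 61, each block was higher in high tumors, from 0.31 log2 in the block nearest the centromere (Selenop to Mtdh) to 0.58 in the seventh block (Lrrk2 to Mettl7a2). The second block, which ends at Myc, differed by 0.34. By tumor, 5 of 9 high tumors (Liver tumors 1, 4, 8, 19 and 26) had all 8 blocks above 0, and 6 of 8 low tumors had none above 0. Liver tumor 14 was uneven, at −0.396 in the first and −0.108 in the second block but 0.169 in the third.

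**Figure D3:**
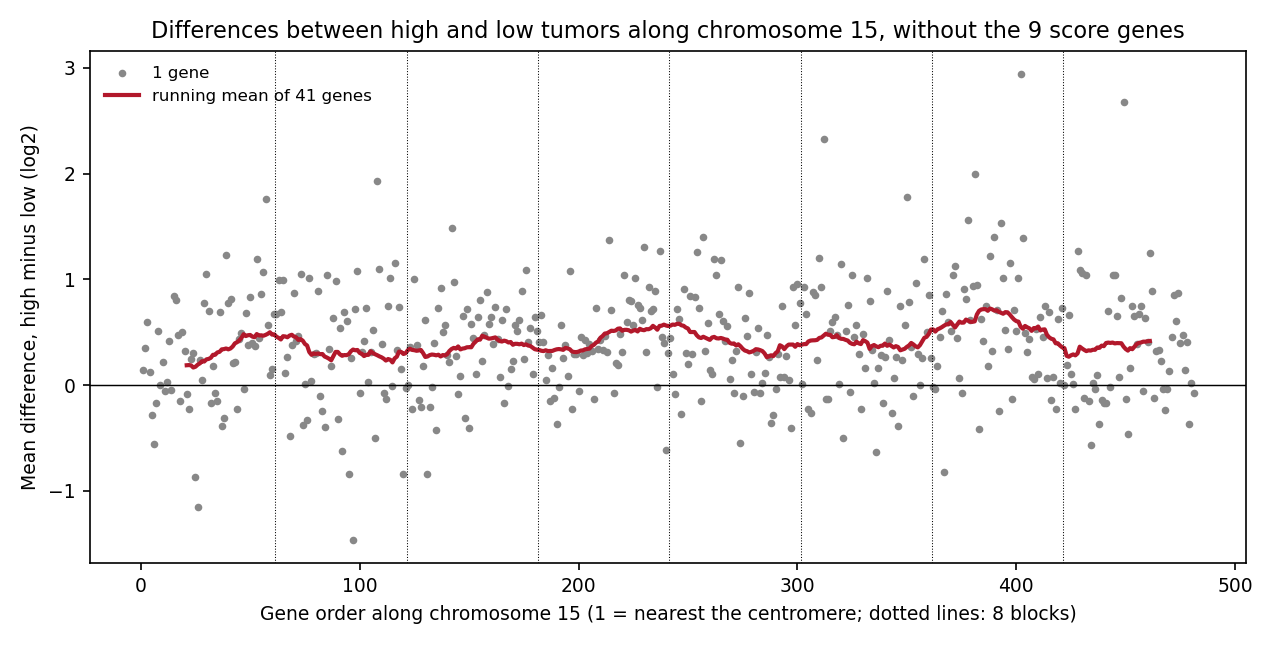
Mean difference between high and low tumors (y axis, log2) for 481 chromosome 15 genes in their order along the chromosome (x axis, gene number from the centromere), 1 point per gene, with the running mean of 41 genes as a line and dotted lines between the 8 blocks. The line stays above 0 over its whole length.

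By difference over pooled SD the leading genes of chromosome 15 were Krt8 (4.77), Atxn10 (4.00) and Krt18 (3.63). Keratins 8 and 18 pair into the intermediate filaments of hepatocytes. Krt8 ran from 13.76 to 14.32 log2 (median 14.06) in high and from 12.63 to 13.38 (median 12.96) in low tumors, a difference of 1.04 or 4.77 times the pooled SD of 0.22. The tumors nearest to each other across the gap were Liver tumor 28 (low, 13.38) and Liver tumor 9 (high, 13.76). Krt18 ran from 12.29 to 13.07 (median 12.74) in high and from 11.32 to 12.15 (median 11.50) in low tumors, a difference of 1.04 as well. Krt8 stood at 11.56 to 12.09 in 9 healthy livers, below every high and low tumor, and at 13.00 in Healthy liver 1, within the low tumors. Among the middle tumors Krt8 ran from 11.17 to 14.05, and Liver tumors 23 and 24 were lower than every low tumor for both keratins.

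The promoters of 4 of the genes without overlap are shown because their levels differed in the same direction: Krt8 and Krt18, whose products form 1 filament, Eif3l and Atxn10. Each window holds 250 bases before and 50 after the RefSeq start (GRCm38.p6, printed 5′ to 3′ on the gene's strand). They lie at chr15:102004293-102004592 on the minus strand (Krt8), chr15:102027966-102028265 on the plus strand (Krt18), chr15:79074973-79075272 on the plus strand (Eif3l) and chr15:85336005-85336304 on the plus strand (Atxn10). Capitals mark the 4 motifs searched on both strands, which are the CCAAT box (letters CCAAT), the GC box (letters GGGCGG), the TATA box (letters TATAAA) and the E-box (letters CACGTG).
Krt8: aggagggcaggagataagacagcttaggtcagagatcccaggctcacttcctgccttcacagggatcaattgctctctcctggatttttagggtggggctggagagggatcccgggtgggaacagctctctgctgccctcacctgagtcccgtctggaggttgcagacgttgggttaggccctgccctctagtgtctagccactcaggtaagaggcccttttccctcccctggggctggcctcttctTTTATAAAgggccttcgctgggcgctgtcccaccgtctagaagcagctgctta
Krt18: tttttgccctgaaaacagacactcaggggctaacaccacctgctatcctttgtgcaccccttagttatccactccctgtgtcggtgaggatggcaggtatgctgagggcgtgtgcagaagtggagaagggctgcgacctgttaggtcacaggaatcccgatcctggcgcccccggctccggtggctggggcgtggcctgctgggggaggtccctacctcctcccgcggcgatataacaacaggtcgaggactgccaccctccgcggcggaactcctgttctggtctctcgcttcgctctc
Eif3l: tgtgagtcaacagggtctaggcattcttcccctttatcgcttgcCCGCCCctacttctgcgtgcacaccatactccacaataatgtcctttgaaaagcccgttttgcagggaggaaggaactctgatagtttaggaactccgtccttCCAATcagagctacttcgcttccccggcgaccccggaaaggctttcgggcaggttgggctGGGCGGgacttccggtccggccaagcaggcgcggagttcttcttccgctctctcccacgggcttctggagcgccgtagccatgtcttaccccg
Atxn10: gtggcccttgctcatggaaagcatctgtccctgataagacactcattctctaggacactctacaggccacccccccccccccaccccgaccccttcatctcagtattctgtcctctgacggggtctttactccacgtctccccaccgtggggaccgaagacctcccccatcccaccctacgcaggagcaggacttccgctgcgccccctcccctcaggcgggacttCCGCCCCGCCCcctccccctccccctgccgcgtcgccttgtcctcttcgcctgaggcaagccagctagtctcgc

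No motif of the 4 was found in all 4 windows. The Krt8 window held the TATA box on both strands, in places that overlap, the Eif3l window held the CCAAT box once and the GC box in 2 places, the Atxn10 window held the GC box in 2 overlapping places, and the Krt18 window held none of the 4 motifs. Over all 32851 promoter windows of this length, 37.4% held the CCAAT box, 35.7% the GC box, 13.6% the TATA box and 7.15% the E-box. Of the 21 chromosome 15 genes without overlap 18 matched a promoter, with 22 windows in all. A gene was counted if any of its windows held the motif. By gene, 7 held the CCAAT box, 14 the GC box, 1 the TATA box and 0 the E-box. The shares above count single windows and not genes, so they are not a like measure. A match is a run of letters and not a site of binding.

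Atxn10, the ataxin 10 gene, ran from 8.37 to 9.46 log2 (median 9.15) in high and from 7.67 to 8.27 (median 7.97) in low tumors, a difference of 1.15. Pick1, a PDZ domain protein gene, differed by 1.31 (high 9.39 to 10.85, low 8.18 to 8.94), and Smagp, a small membrane adhesion protein gene, by 1.09 (high 11.11 to 12.39, low 10.41 to 10.85). No tumor of either group crossed into the other for these 3 genes. Within each of the 4 chips that held both groups (5 against 1, 1 against 1, 1 against 3 and 1 against 1 tumors) the differences of Krt8 were 1.01, 1.34, 0.97 and 0.86, and those of Atxn10 were 1.13, 1.56, 0.42 and 1.01.

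Genes of translation and RNA processing on chromosome 15 were higher in high tumors nearly throughout. Of 23 measured genes of this list 22 had a higher mean in high tumors, 17 by at least 0.5 log2, with a median of 0.65 (−0.03 over all genes), and 0.36 with the deposited log2 values. Over the 481 chromosome 15 genes 76.7% had a higher mean, 40.5% by at least 0.5 log2, with a median of 0.39. Eif3l, an eIF3 subunit gene, ran from 11.98 to 12.85 (median 12.21) in high and from 10.60 to 11.48 (median 11.39) in low tumors. Phf5a, a component of the U2 spliceosome particle, differed by 0.93 (high 12.32 to 13.34, low 11.44 to 11.96). Snu13, which binds box C/D and U4 RNAs, differed by 0.87 at low intensity (high 6.43 to 7.49, low 5.63 to 6.16). The ribosomal protein gene Rpl37, whose probe may also bind transcripts of its pseudogenes, was higher by 0.51 log2 without overlap. Ago2, which slices targets of small RNAs, was higher by 0.92 with overlapping groups (high 8.73 to 9.94, low 8.16 to 8.86).

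Cell division and chromatin genes of chromosome 15 were higher by a median of 0.60 (25 genes, 14 by at least 0.5 log2), which was 0.41 with median scaling and 0.12 with the deposited log2 values. Beside this stand 40.5% of the chromosome's genes by at least 0.5 log2 and its median of 0.39. The Mdm2-binding protein gene Mtbp ran from 7.46 to 8.38 in high and from 6.28 to 7.43 in low tumors. Rbx1, the ring finger subunit of cullin ubiquitin ligases, was higher by 1.19 and Nsmce2, a SUMO ligase subunit of the Smc5-Smc6 complex, by 0.74 log2, both with overlap. Outside these lists Trio, which encodes a guanine nucleotide exchange factor, was higher by 0.83, Rictor, the defining mTORC2 subunit, by 0.84, the checkpoint clamp subunit gene Rad1 by 1.05 and Cox14, an assembly factor of cytochrome c oxidase, by 0.75, each without overlap.

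**Figure D4:**
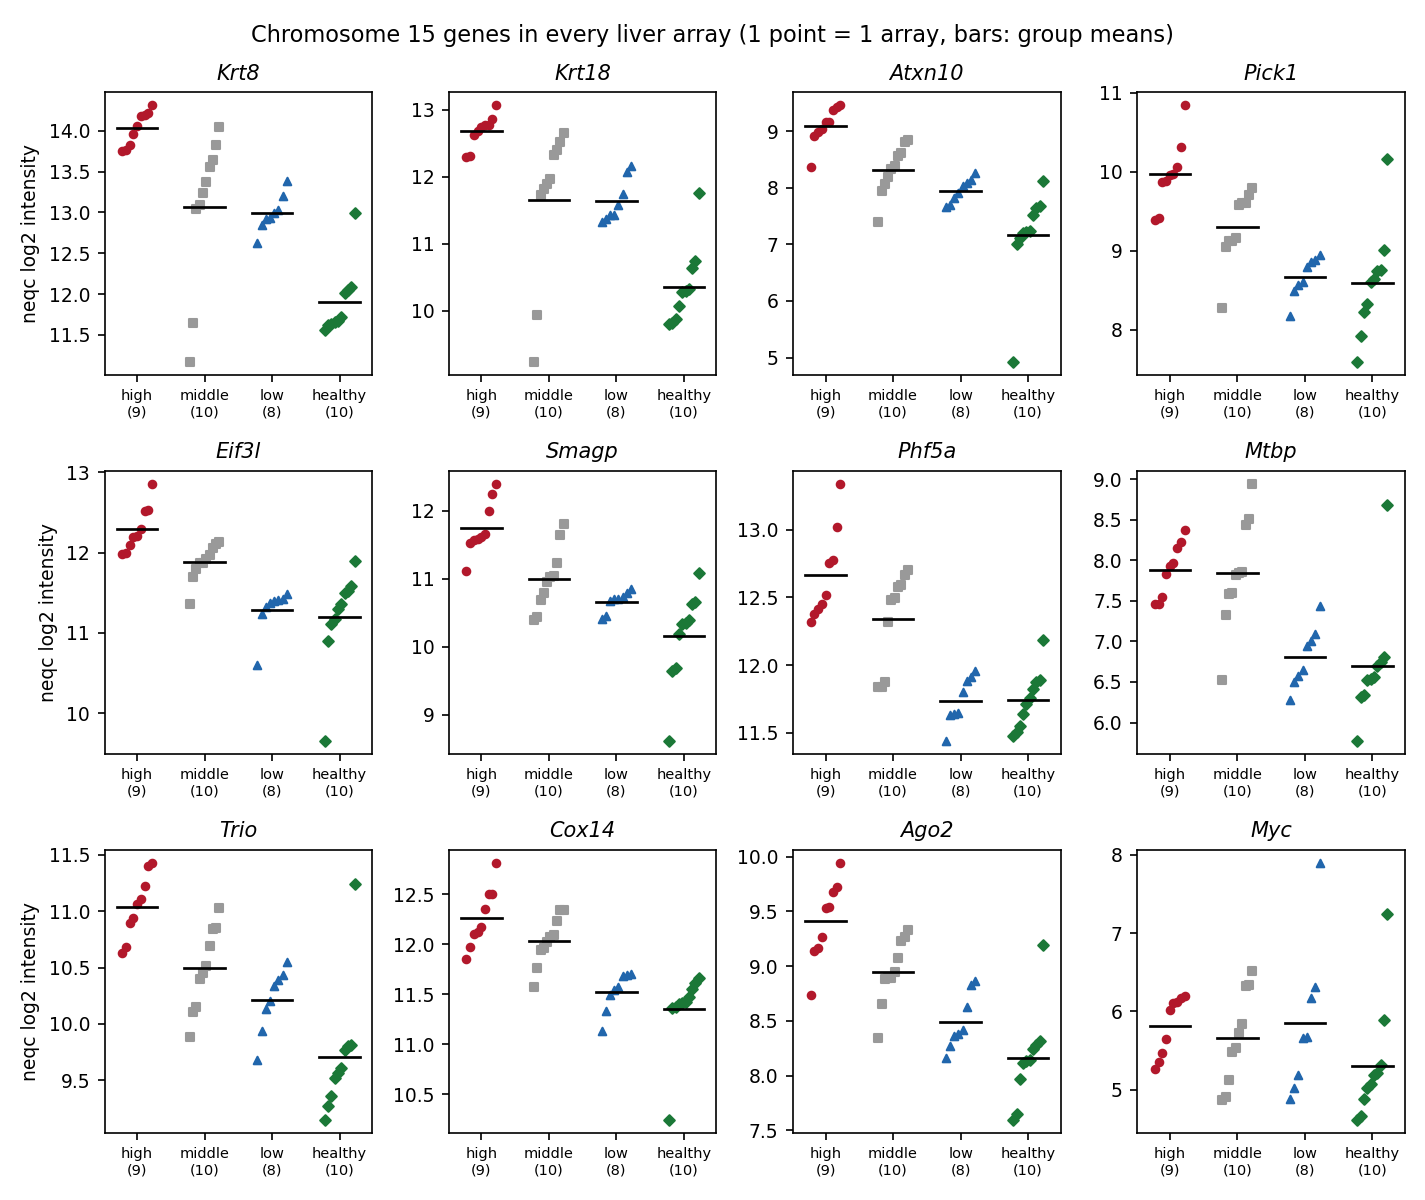
The neqc log2 intensity (y axes, each with its own range) of 12 chromosome 15 genes in each liver array (x axes, 9 high, 10 middle, 8 low tumors and 10 healthy livers), 1 point per array with bars at group means. For Krt8 the lowest high tumor stands at 13.76 and the highest low tumor at 13.38, whereas for Myc the group ranges overlap throughout.

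Myc itself overlapped throughout. It was near background, from 5.27 to 6.20 log2 (median 6.02, detected in 8 of 9) in high and from 4.88 to 7.90 (median 5.67, detected in 5 of 8) in low tumors, a difference of −0.03, and the highest value belonged to the low Liver tumor 29. Without that tumor the difference was 0.26, and among p53 f/f tumors 0.45. The 18 measured genes of the list around Myc had a median difference of 0.25 (0.47 among p53 f/f tumors, 0.15 without chip C, 0.12 without Liver tumors 4 and 8 and 0.03 with the deposited log2 values), among them Fam91a1, a Golgi trafficking gene, higher by 1.10 and Khdrbs3, an RNA-binding protein gene, at −0.84 log2.

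Metabolic genes of the chromosome went both ways, as did its genes as a whole. Of 30 measured hepatocyte and metabolic genes 21 had a higher mean in high tumors, with a median of 0.31 that was 0.16 without chip C. Over the chromosome 76.7% of genes had a higher mean, with a median of 0.39. Adsl, the adenylosuccinate lyase of purine synthesis, was higher by 0.59 without overlap, and Atf4, the transcription factor of the integrated stress response, by 1.26 with overlap. The 4 lowest differences of the chromosome belonged to Col14a1, a fibril-associated collagen gene (−1.46), the UDP-glycosyltransferase genes Ugt3a2 (−1.16) and Ugt3a1 (−0.87) and Khdrbs3. All 4 overlapped widely, with Ugt3a2 spread from 6.28 to 14.31 within the high tumors alone. Ugt3a1 and Ugt3a2 are close copies whose probes may share transcripts.

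The keratin and matrix list and the Ly6 list had medians near 0, with 10 of 16 and 3 of 6 genes higher, beside 76.7% of chromosome 15 genes. Besides Krt8 and Krt18 the 16 keratin and matrix genes held Plec, the plectin gene that links filaments to junctions, higher by 0.72, but the list's median was 0.07 (−0.02 with median scaling). The 6 measured genes of the Ly6 cluster had a median of 0.09 (−0.16 without Liver tumors 4 and 8, 0.32 without chip C), with Ly6e higher by 0.65 and Psca by 1.49 with wide overlap.

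Partners of the score genes that lie on other chromosomes were mixed, and Rad21, Eif3e, Eif3h and Azin1 were themselves rarely detected. The medians were 0.16 for 8 eIF3 subunits, 0.17 for 10 cohesin genes, 0.21 for 9 RNA exosome genes, −0.17 for 8 complex III genes, and 0.03, −0.05 and 0.01 for the partners of Pabpc1, Azin1 and Puf60, these 3 changing sign with the scaling. None of the members of these lists lay apart without overlap. Off chromosome 15 only 2 of 11080 genes were higher and 10 lower without overlap, so nothing is read from this. The 14-3-3 paralogs of Ywhaz differed more: all 5 had a higher mean (beside 44.6% of genes off chromosome 15), with a median of 0.58, led by Ywhag (0.66) and Ywhab (0.84), which overlapped between groups.

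Off chromosome 15, 2 genes were higher and 10 lower without overlap, of 11080. The higher ones were Poglut2, a glucosyltransferase gene (8.65 to 9.33 against 7.93 to 8.58), and Wnk4, a kinase of ion transport (7.71 to 8.14 against 6.74 to 7.55). Both were named because the count is small. The largest lower difference was Plin4, which coats lipid droplets, from 6.03 to 7.54 log2 in high and from 8.15 to 10.97 in low tumors (−2.38, and −1.53 among p53 f/f tumors). Ebpl, a relative of the sterol isomerase Ebp, ran from 11.42 to 12.14 and from 12.21 to 12.96. The others were the D-lactate dehydrogenase gene Ldhd, Pdk2 and Pdpr, which regulate pyruvate dehydrogenase, Ccng1, Rusc1, Chst15, Urgcp and 1700001C19Rik, with differences of −1.27 to −0.61 log2.

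Among genes off the chromosome that were higher by at least 1 log2, the largest difference over pooled SD was that of Grip1 (2.67), a scaffold protein gene, which ran from 7.01 to 9.38 in high and from 4.83 to 7.47 in low tumors (2.05, and 1.16 among p53 f/f tumors). Pigu, a subunit of the enzyme that attaches GPI anchors, was higher by 1.08, the Golgi membrane protein gene Golm1 by 1.59, Inava by 1.34, Gm14685 by 1.5, Txndc12 by 1.22, the sulfotransferase gene Sult2b1 by 1.44, Tagln2 by 1.16, Calm2 by 1.06 and the collagen receptor kinase gene Ddr1 by 1.21. The lower genes included Adamtsl2 (−1.40), Kremen1 (−1.05), Ttc7b (−1.34), Elac1 (−1.02), the folate enzyme gene Aldh1l1 (−1.16) and Gpld1 (−1.19), a phospholipase that cleaves GPI anchors. Each of these named with a difference alone had overlapping groups. In low tumors Grip1 was detected in 5 of 8, Inava in 3, Gm14685 in 4, Txndc12 in 1 and Sult2b1 in 7, so their differences are partly against values not above background.

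Cell cycle genes off chromosome 15 were higher in high than in low tumors, but not higher in high than in middle tumors. All 26 measured genes of S phase and mitosis had a higher mean, beside 44.6% of genes off chromosome 15. Of these 26 genes 18 were higher by at least 0.5 log2, beside 9.86% of all genes. The list's median was 0.89 (0.49 among p53 f/f tumors, 1.10 without chip C, 0.31 with the deposited log2 values). Mcm2, a subunit of the replicative helicase, ran from 7.69 to 9.11 (median 8.56) in high and from 5.87 to 8.55 (median 7.34) in low tumors, and the mitotic activator gene Cdc20 was higher by 1.33. None of these 26 separated the groups, but only 2 of 11080 genes off chromosome 15 were higher without overlap, so nothing is read from this. The middle tumors did not lie between the groups. The list's summed level had a median of 13.73 log2 in high, 13.85 in middle and 12.84 in low tumors. The list was thus low in the low tumors and did not rise steadily with the score. The middle tumors also reached higher than both groups, with Mcm2 up to 10.18 in Liver tumor 24. Of 12 spindle checkpoint genes 9 had a higher mean, beside 44.6% of genes off chromosome 15. Their median difference was 0.52 (0.31 among p53 f/f tumors, 0.08 with the deposited log2 values). Their summed level had a median of 12.75 log2 in high, 12.87 in middle and 12.65 in low tumors.

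Genes of pericentral metabolism, drug oxidation and bile acids were mostly lower in high tumors, while general hepatocyte markers were not (8 of 10 higher, median 0.08, −0.25 with median scaling). The pericentral and beta-catenin target list had a median of −1.11 (15 genes, 10 lower by at least 0.5 log2), the drug-metabolizing P450 list −0.95 (12 of 18) and the bile acid list −0.42 (6 of 13), and 0 of these genes separated the groups. Over all genes off chromosome 15, 9.10% were lower by at least 0.5 log2. Only 10 of these 11080 genes were lower without overlap, so nothing is read from the 0. Cyp7a1, which starts the main route from cholesterol to bile acids, ran from 4.87 to 9.77 (median 6.48) in high and from 5.36 to 12.69 (median 9.04) in low tumors. Among p53 f/f tumors alone the 3 medians were −0.62, −0.47 and −0.27, and with the deposited log2 values −0.28, −0.51 and −0.21. The medians for secreted plasma proteins, the respiratory chain and glycolysis were within 0.03 log2 of 0 and changed sign with the scaling.

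**Figure D5:**
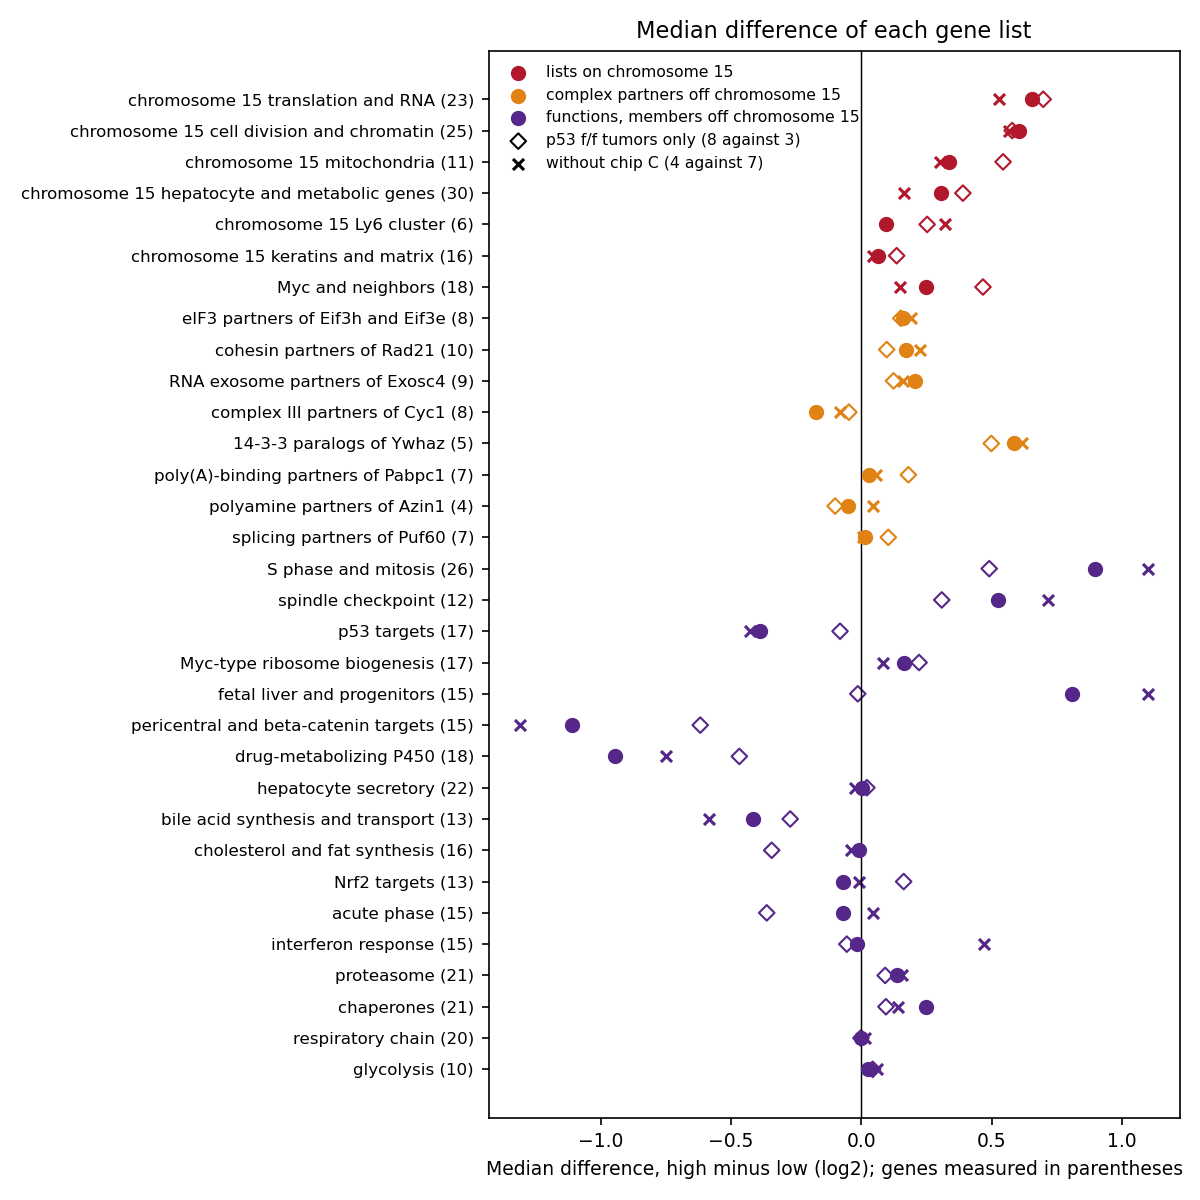
Median difference between high and low tumors (x axis, log2) for each gene list (y axis, number of genes measured), as filled circles for 9 against 8 tumors, open diamonds for p53 f/f tumors only (8 against 3) and crosses without chip C (4 against 7). The translation list of chromosome 15 stays at 0.53 to 0.70, while the fetal liver list moves from 0.81 to −0.01 among p53 f/f tumors.

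Fetal liver genes were higher in high tumors over both genotypes but not among p53 f/f tumors. The list's median was 0.81 over all tumors and −0.01 among p53 f/f tumors. Igf2, the fetal growth factor gene, stood at 15.13 to 15.54 log2 in all 9 high tumors and at 15.30 to 15.47 in the low Liver tumors 5, 20, 25 and 28, of which 3 are p53 f/f. Quantile normalization assigns values by rank, and some arrays shared a value (15.449 in the high Liver tumor 7 and the low Liver tumor 25). The narrow range at this high level therefore does not show equal amounts of Igf2 RNA. Igf2 was 9.15, 9.40, 11.69 and 13.72 in Liver tumors 29, 17, 15 and 18, all low and p53 f/+. Healthy livers other than Healthy liver 1 were at 6.26 to 8.22. Genes induced by p53 had a median of −0.39 (2 of 17 higher, beside 44.6% of genes off chromosome 15) and −0.08 among p53 f/f tumors. Cyclin G1 (Ccng1), a p53 target gene, separated the groups, at 7.95 to 8.77 in high and 8.90 to 9.78 in low tumors, and −0.74 among p53 f/f tumors.

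The genotype itself was not shown to differ between the groups. With 8 of 9 high and 4 of 9 low tumors p53 f/f, Fisher's exact test gave p = 0.13 (two-sided, adjusted p = 0.26), and tumors of 1 mouse are not independent. Over all tumors with intensities, averaged by mouse, the chromosome 15 mean was 0.052 ± 0.207 (SD, n = 15) in p53 f/f and −0.129 ± 0.050 (SD, n = 4) in p53 f/+ mice, a difference of 0.18 (exact permutation p = 0.087, two-sided, adjusted p = 0.26). The difference of 0.45 log2 between high and low tumors among p53 f/f tumors alone (8 against 3) stood beside 0.40 over both genotypes.

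Tumors of the same mouse were not shown to be closer in score than tumors of different mice. In 8 mice with 2 ranked tumors the mean absolute difference of the score was 0.206, against a mean of 0.192 when scores were shuffled over the tumors (permutation p = 0.74, two-sided). One mouse gave Liver tumor 6 (score 0.134, chromosome 15 mean 0.063) and Liver tumor 5 (−0.122 and −0.313), another Liver tumor 14 (0.067 and −0.011) and Liver tumor 15 (−0.168 and −0.149). The widest gap was between Liver tumor 4 (0.478) and Liver tumor 3 (0.053) of 1 mouse. In 7 of 8 mice the tumor with the higher score also had the higher chromosome 15 mean. This is a description, because the tumors were ranked on genes of the same chromosome and arrays.

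Markers of other cells moved with the split as well. For scale, 44.6% of all genes off chromosome 15 had a higher mean in high tumors. Endothelial markers were lower in high tumors (13 of 15, median −0.61, and −0.43 among p53 f/f tumors), with summed levels of 11.54 to 13.26 in high and 12.46 to 13.82 log2 in low tumors. The sinusoidal endothelial gene Stab2 ran from 5.59 to 8.89 and from 7.42 to 10.37. Of 15 stellate cell and fibroblast markers 11 had a lower mean (median −0.28, summed levels 13.90 to 15.22 and 13.90 to 15.20), led by Lum (−1.94) and Dcn (−1.55). Of these 15 markers 7 were lower and 3 higher by at least 0.5 log2. Macrophage markers were at 12.87 to 15.50 and 13.70 to 14.94, with the Kupffer cell gene Vsig4 at a difference of −2.30. Of 14 macrophage and Kupffer markers 5 had a higher mean, with a median of −0.21, and 3 were higher and 3 lower by at least 0.5 log2. Red cell precursor markers had a median of −0.35. The median of 7 T and NK cell markers was −0.44, with −0.87 among p53 f/f tumors, −0.55 with median scaling and −0.39 without Liver tumors 4 and 8. It was −0.03 without chip C and −0.07 with the deposited log2 values. Neutrophil markers changed sign, from 0.21 to −0.61 among p53 f/f tumors, −0.35 without chip C and −0.39 without Liver tumors 4 and 8. Their part in the differences above, that of the chromosome 15 mean included, was not tested.

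The labelled comparison of liver tumors with healthy liver, which does not use the split, gave chromosome 15 more higher and fewer lower calls than all genes. By limma with Benjamini-Hochberg adjustment over 11567 genes, 148 of the 481 chromosome 15 genes (30.8%) rose in tumors, beside 14.2% of all genes, and 33 (6.86%) fell, beside 14.2% of all genes. The median difference was 0.28 log2 for chromosome 15 and −0.01 for all genes. Scaling moved all genes together: 33.7% of all calls were higher with median scaling and 85.7% with a median over all probes, against 49.97% here, and the chromosome 15 and all-gene medians were then 0.14 and −0.17, and 0.54 and 0.23. With the deposited log2 values they were 0.075 and −0.005, with counts of 119 and 33. Without Healthy liver 1 the counts were 170 and 44, and with the chip as a random block 118 and 22. Only chip G held both tumors and healthy livers with intensities, so chip and group can hardly be told apart: its tumors, 28 and 29 of 1 mouse, had chromosome 15 means of −0.119 and −0.196, and its healthy livers, 1 to 3, −0.242, −0.335 and −0.327.

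Of the 21 chromosome 15 genes without overlap 15 rose in tumors against healthy liver and none fell, and 17 rose without Healthy liver 1, beside 14.2% and 19.0% of all genes that rose. The 21 genes were chosen on values of the same tumors, so nothing is read from this count. Krt8 rose by 1.46 ± 0.25 log2 (SE, 28 tumors against 10 healthy livers, limma adjusted p = 3.2e-05), Krt18 by 1.63 ± 0.29 (adjusted p = 6.2e-05) and Atxn10 by 1.31 ± 0.24 (adjusted p = 1.0e-04). Eif3l rose by 0.65 ± 0.19 (adjusted p = 0.0092), Trio by 0.89 ± 0.19 (adjusted p = 4.4e-04) and, of the score genes, Puf60 by 0.68 ± 0.14 (adjusted p = 3.0e-04), Pabpc1 by 1.19 ± 0.34 (adjusted p = 0.0075) and Ywhaz by 0.93 ± 0.27 (adjusted p = 0.0078). For Cyc1 (0.40 ± 0.22, adjusted p = 0.17), Exosc4 (0.21 ± 0.11, adjusted p = 0.15) and Myc (0.45 ± 0.25, adjusted p = 0.18) the difference did not pass the threshold, though Myc did without Healthy liver 1 (0.66, adjusted p = 0.020). The mean of the low tumors was above that of healthy livers for 17 of the 21 genes and that of the high tumors for all 21.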

How the data were processed

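Tumors, livers and thymic samples were hybridized to Illumina mouse bead chips. The authors deposited probe intensities with background subtracted, detection scores (a fraction, 1 minus the detection p-value) and log2 values normalized separately for liver and thymus; the submitters' notes name limma, and the other steps are not given in the sources used here. Here, intensities of 38 liver arrays were processed with neqc (limma 3.58.1, offset 16). Probes with detection p below 0.05 on 5 arrays and 1 gene symbol were kept, and each gene took its probe with the highest mean (21108 probes, 11567 genes). 2 columns (1 array) that no label names were not used. The score that ranks the tumors follows deposited log2 values. The correlations within middle tumors, healthy livers and T-ALLs used a score recomputed from neqc intensities. Liver tumors were compared with healthy livers by limma with the mouse as a random block, tested on simulated data. Other tests used exact or 100000-resample permutations (SciPy 1.17.1), adjusted by Benjamini-Hochberg. Alternatives covered scaling, probe choice, the score, group size, chip, genotype and single tumors. The number of arrays limits precision, and p-values for arrays not known to be from separate animals measure only the spread between samples.

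Named genes were the score genes, Myc and Mad2l1, on chromosome 15 the 12 largest differences over pooled SD among those higher by 0.5 log2 and the 4 lowest, off it 10 each way among those differing by 1 log2, and 3 per list. Genes without overlap were named after their values were seen, as was Igf2 in single tumors. Members and lists were chosen with earlier results of these data known.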

Additional observations from a re-analysis of the deposited data

Results flagged for a closer look

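Single samples stood apart from their group (the gap to the nearest other sample was large relative to the group's range) in 14 of 57 groups examined, and chance flags about 1 in 20 groups. Healthy liver 1 accounted for 6 of them, as the highest healthy liver for Krt8 (13.00, next 12.09), Krt18 (11.76, next 10.75), Mtbp (8.69, next 6.81), Trio (11.24, next 9.81), Puf60 (13.35, next 12.88) and Ago2 (9.19, next 8.32). Healthy liver 5, the dimmest healthy array, accounted for 4, as the lowest for Atxn10 (4.92, next 7.01), Eif3l (9.66, next 10.90) and Cox14 (10.24, next 11.37) and as the highest for the chromosome 15 mean (−0.151, next −0.242). The other 4 were tumors: Pabpc1 in the low Liver tumor 5 (8.84, next 7.38), Atxn10 in the high Liver tumor 19 (8.37, next 8.91), Eif3l in the low Liver tumor 29 (10.60, next 11.24) and Snu13 in the high Liver tumor 4 (7.49, next 6.90).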

How the results depend on the processing

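The difference in the chromosome 15 mean (0.40 log2) ran from 0.34 (without Liver tumor 4) to 0.43 (without Liver tumor 14) when each tumor was left out, and was 0.59 within chip C, 0.14 within chip D and 0.23 with the deposited log2 values, where most list medians were also smaller. Over 91 alternative settings 71 kept their direction and call, or moved by less than the spread between tumors or less than 1.5 times for counts, no called value reversed and 20 changed. The count of 21 chromosome 15 genes higher without overlap became 67 among p53 f/f tumors, 58 without chip C and 42 with a median over all probes, where fewer tumors alone leave more genes without overlap in the first 2. Outside the chromosome the 2 higher genes became 45 among p53 f/f tumors, 151 without chip C, 12 with a median over all probes, 5 with tumors of a mouse averaged and 1 with probes averaged. The 10 lower genes became 103, 145 and 0 under the first 3 of these and 6 with the deposited log2 values. The relation in middle tumors was r = 0.19 without the 2 farthest tumors and 0.54 with the deposited log2 values, that in healthy livers −0.65 with the deposited values (permutation p = 0.047) and that in T-ALLs 0.74 with all 9. Of chromosome 15 genes, 33 were lower in tumors against healthy liver, 11 with a median over all probes and 20 with the replicate block; replicate numbers only name samples, and high and low tumors share 0 of them. The causes were not tested. The settings with a median over all probes, without chip C, without Liver tumors 4 and 8, with the score from the 5 detected genes and the 2 for Myc were chosen after seeing the data. Array number and the brightness of each array limit all values, and probes not above background carry no level.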
